A study of Mus musculus with 6 samples.

Results

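The genes described here encode the enzymes that make, recycle and interconvert purine and pyrimidine nucleotides. They are 34 genes chosen by enzyme role, and their probe sets were those that the annotation of the Affymetrix whole-genome mouse array pairs with 1 of these symbols alone. Of the 34 genes, 33 had such a probe set, Impdh2 being the exception, and 32 passed the filter on dim signals, out of 13194 genes tested and 18193 genes with a probe set. By role, 12 of the 34 act in the making of phosphoribosyl pyrophosphate (PRPP) and in de novo purine synthesis, 5 in de novo pyrimidine synthesis, 7 in the making of deoxynucleotides, and 10 in salvage and interconversion. Each gene was read from its brightest probe set, as a log2 signal.

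Transcripts were measured in P14 cytotoxic T cells, which carry a transgenic T cell receptor for the gp33 peptide, from C57Bl/6 mice whose age is not among the labels used here. All 6 samples share their history: spleen cells were activated with gp33 for 24 h and infected with a retrovirus for a GFP-tagged, phosphorylation-deficient mutant of HDAC7, a histone deacetylase of class IIa and a repressor of transcription. Sorting on GFP gave 3 GFP positive samples, whose cells carry the mutant, and 3 GFP negative samples, labelled as control, here also called control samples. The control cells are therefore those of the infected cultures that do not show GFP, with no empty-vector arm among the samples analysed here. Each group's 3 samples are called biological replicas in the labels, which do not name separate mice or cultures. The p-values therefore measure the spread between these samples, which may be technical. In bulk RNA, fewer cells of a type and less RNA per cell cannot be told apart.

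Activated lymphocytes make nucleotides for RNA, DNA, membrane and glycan precursors. The de novo purine pathway builds the ring stepwise on PRPP up to IMP, from which AMP and GMP branch; the pyrimidine pathway builds its ring first, joins it to PRPP as OMP, and leads through UMP to CTP. Ribonucleotide reductase turns ribonucleoside diphosphates into deoxynucleotides in S phase, and salvage enzymes return free bases and nucleosides to the nucleotide pool.

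The MYC and E2F families of transcription factors are known regulators of these genes, so the promoter letters they are known to bind were looked up. The windows are RefSeq's for GRCm38.p6, 250 bases before to 50 after a gene's start. The E-box CACGTG occurred in the windows of 7 of the 32 members with a window (Ampd3, Atic, Dtymk, Impdh2, Nme1, Paics and Tyms), or 21.9%, against 8.09% of all 27025 genes with a window. It occurred in 2 of 16 members lower in GFP positive cells (Atic and Nme1) and in 1 of 7 members higher there (Tyms). The E2F letters TTTCCCGC and TTTGGCGC, on either strand, occurred in 2 of the 32, Ppat and Prps2, against 1.80% of genes. Matches are a description and name no site. The members with a window leave out Pfas and Dhodh. The promoters shown are those of 3 enzymes of the purine ring (Atic, Ppat and Paics) and of the kinase gene Nme1, which hold matches at different distances from the start. Atic lies at chr1:71556906-71557205 on the plus strand, Ppat at chr5:76951529-76951828 on the minus strand, Paics at chr5:76951052-76951351 on the plus strand, and Nme1 at chr11:93968223-93968522 on the minus strand. Capitals mark CACGTG in Atic, Paics and Nme1, and the reverse complement of TTTCCCGC in Ppat.
Atic: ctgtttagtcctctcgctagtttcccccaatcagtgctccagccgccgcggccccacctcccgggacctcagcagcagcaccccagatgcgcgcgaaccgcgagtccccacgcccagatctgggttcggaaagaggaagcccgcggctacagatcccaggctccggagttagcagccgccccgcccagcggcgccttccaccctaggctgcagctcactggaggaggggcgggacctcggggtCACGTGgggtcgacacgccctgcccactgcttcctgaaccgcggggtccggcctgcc
Ppat: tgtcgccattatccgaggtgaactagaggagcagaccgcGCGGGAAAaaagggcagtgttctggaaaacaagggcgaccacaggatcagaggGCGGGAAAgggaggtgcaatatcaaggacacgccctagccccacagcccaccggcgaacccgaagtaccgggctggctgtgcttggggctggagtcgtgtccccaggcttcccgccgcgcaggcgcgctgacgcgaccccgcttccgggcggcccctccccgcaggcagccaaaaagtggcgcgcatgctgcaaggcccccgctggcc
Paics: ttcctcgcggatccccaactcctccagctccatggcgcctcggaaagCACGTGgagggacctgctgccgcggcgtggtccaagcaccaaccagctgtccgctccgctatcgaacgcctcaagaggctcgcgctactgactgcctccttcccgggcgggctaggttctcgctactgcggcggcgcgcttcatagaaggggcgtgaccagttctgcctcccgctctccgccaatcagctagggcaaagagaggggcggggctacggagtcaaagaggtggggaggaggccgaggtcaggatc
Nme1: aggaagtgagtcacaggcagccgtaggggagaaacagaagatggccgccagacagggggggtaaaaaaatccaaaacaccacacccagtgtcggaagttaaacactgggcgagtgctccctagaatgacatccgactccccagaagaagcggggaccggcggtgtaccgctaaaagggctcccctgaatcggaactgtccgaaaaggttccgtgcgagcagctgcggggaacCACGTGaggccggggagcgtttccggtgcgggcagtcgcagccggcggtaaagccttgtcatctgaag
Counted from the start, the E-box begins at -7 in Atic, -18 in the Nme1 window shown and -203 in Paics. The Ppat matches begin at -211 and -158. A further Nme1 window, at chr11:93967976-93968275 on the minus strand, holds an E-box that begins at -29. Ppat and Paics, which encode the first enzyme of the purine pathway and a later bifunctional one, are divergent neighbours on chromosome 5 whose RefSeq spans overlap by 277 bases at their starts. The windows shown for these genes lie close but do not touch, as that of Paics reaches up to 76951351 and that of Ppat runs from 76951529.

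Over all members, 18 of 32 were lower in GFP positive than in GFP negative cells, 7 were higher and 7 did not pass the threshold, an adjusted p of 0.05 from limma over all 13194 genes tested. Changes were widespread on these arrays: 42.1% of all genes tested passed, 24.6% higher and 17.5% lower, so the members' 56.3% lower stands beside a background of 17.5%. The 3 GFP positive samples all lay below the 3 GFP negative ones in 21 members and all above in 9, against 24.2% and 29.7% of all genes tested, and the groups overlapped in Ada and Dck. The members' median change was -0.29 on the log2 scale, against -0.02 over all genes tested, whose middle range ran from -0.23 to 0.29 between quartiles. Falls were found in all 4 role groups and rises in the pyrimidine, deoxynucleotide and salvage groups. The deoxynucleotide members had 4 of 7 higher, but 1 of 7 after median centring of the arrays, which moved the median change of all genes by -0.12. Centring also changed the members' split from 18 lower and 7 higher to 21 lower and 3 higher. Among all genes tested, 6325 passed after centring, 39.6% of them higher, against 5557 and 58.4% as deposited.

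**Figure D1:**
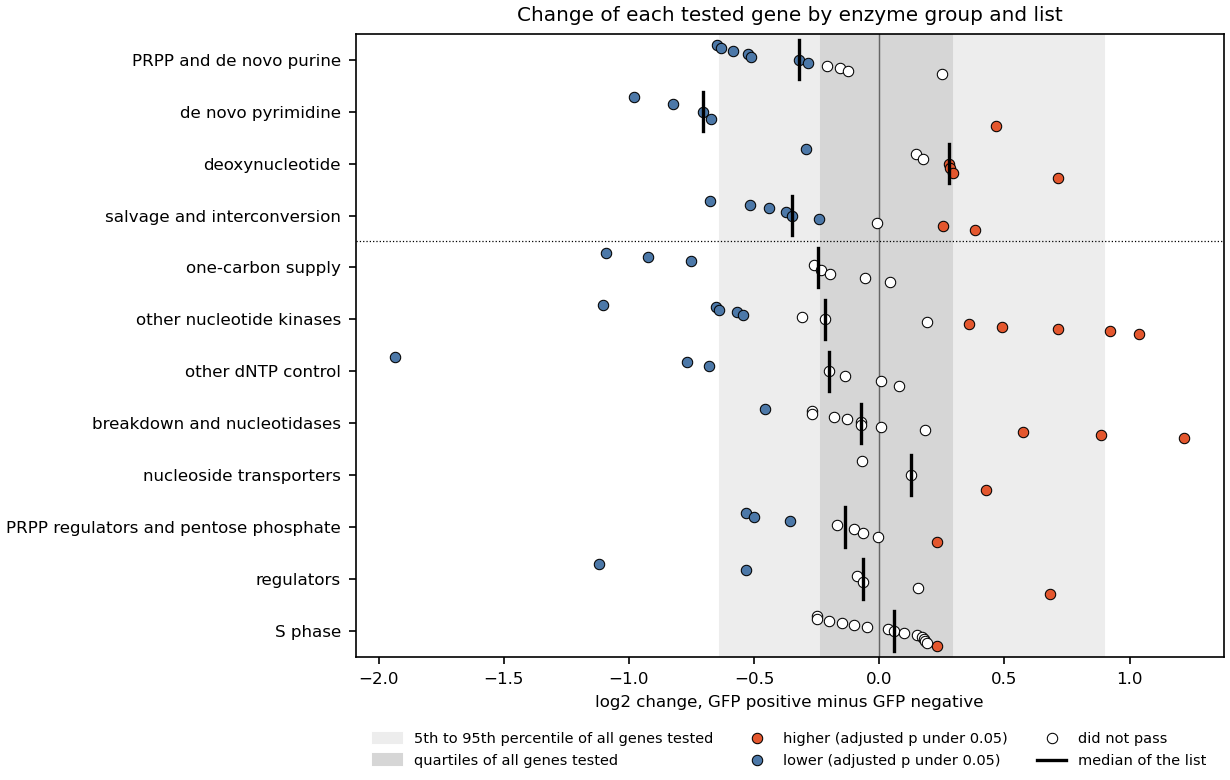
Log2 change, GFP positive minus GFP negative (x axis), of each tested gene in the 4 member groups and in the other lists (y axis), with red for higher, blue for lower and white for not past the threshold, a vertical bar for each median, and shading for the quartiles and the 5th to 95th percentiles of all genes tested. Mycn, at 6.15 on its brightest probe set, is off the scale and not drawn but is counted in its list's median. The de novo pyrimidine members sit lowest, at a median of -0.71, and the deoxynucleotide members highest among the 4 member groups, at 0.28.

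Genes of de novo purine synthesis were mostly lower in GFP positive cells. Of 11 tested members of this group, 7 fell, 0 rose and 4 did not pass, with a median change of -0.32. Over all genes tested, 17.5% were lower and 24.6% higher. In 10 of the 11 all GFP positive samples lay below all GFP negative ones, as they did in 24.2% of all genes tested. A robust prior and the fit without GFP positive 2 each called 1 member higher, Impdh1.

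PRPP, the ribose donor of both pathways, is made by the synthetases that Prps1 and Prps2 encode. Prps1 read 8.01, 8.18 and 8.16 in GFP negative samples 1 to 3 and 7.92, 7.81 and 7.75 in GFP positive samples 1 to 3. The groups did not overlap, and the change was -0.28 ± 0.09 (SE; limma adjusted p = 0.0315). That call ended with the replicate number as a block (adjusted p = 0.0503) and when GFP negative 2, GFP negative 3, GFP positive 2 or GFP positive 3 was left out, at changes of -0.28 to -0.25. Prps2 read 7.44, 7.55 and 7.43 against 7.23, 7.23 and 7.32, which does not overlap either. Its change of -0.21 did not pass (limma adjusted p = 0.0613). Prps2 passed with quantile normalization (-0.28), median centring (-0.33) and the mean of its probe sets (-0.34). It also passed with 32 added to every linear value, a dim filter at the 60th percentile and the robust prior. Other Prps2 probe sets changed by -0.45 and -0.35.

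Ppat encodes the amidotransferase that commits PRPP to purines. It read 7.39, 7.30 and 7.15 in control and 6.64, 6.84 and 6.78 in GFP positive samples. All 3 GFP positive samples were lower than the lowest control, and the level fell from 7.28 ± 0.12 to 6.76 ± 0.10 (SD, n = 3), or 1.44-fold (change -0.52 ± 0.10 SE; limma adjusted p = 0.0033). Gart encodes a trifunctional enzyme of later steps. Its samples read 7.77, 7.91 and 7.88, against 7.09, 7.35 and 7.18. This was the largest fall among the purine members, -0.65 ± 0.09 (SE), or 1.57-fold (limma adjusted p = 0.0011), with no overlap between the groups. Its other probe sets past the filter changed by -0.80, -0.67 and -1.16.

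Pfas, the gene of the amidotransferase that follows, read 6.38, 6.21 and 5.86 in control and 5.31, 5.51 and 5.74 in GFP positive samples. Its groups came close, at 5.86 and 5.74, without overlapping. The change was -0.63 ± 0.16 (SE), or 1.55-fold lower (limma adjusted p = 0.0133), and -0.41 after adding 32 to every linear value, which damps changes of weak signals. Adsl, whose lyase acts both in the ring's assembly and in the branch to AMP, read 7.85, 8.01 and 7.94 against 7.31, 7.47 and 7.28. Its groups lay well apart, with a change of -0.58 ± 0.09 (SE), or 1.497-fold (limma adjusted p = 0.0014). Atic encodes the bifunctional enzyme that closes the ring to IMP. It read 8.41, 8.48 and 8.37 against 7.78, 7.88 and 8.07. GFP positive 3 lay nearest to the controls, and the change was -0.51 ± 0.10 (SE), or 1.42-fold (limma adjusted p = 0.0039), with -0.54 on a second probe set.

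Paics, the remaining gene of ring assembly, stood apart from these with a change of -0.16 (limma adjusted p = 0.148). It read 10.29, 10.38 and 10.29 against 10.23, 10.18 and 10.08, so the groups were close but did not overlap. Its other probe sets disagreed, at 0.05 and -0.46. The brightest one passed after median centring (-0.27), with 32 added in linear units and with the robust prior. Paics and Ppat share a start region on the genome, and their changes were -0.16 and -0.52.

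From IMP, Adss leads to AMP, and Impdh1, Impdh2 and Gmps lead to GMP. Gmps (GMP synthetase) fell by 0.32 (limma adjusted p = 0.0192), a call that ended without GFP negative 2 (-0.27) or GFP positive 3 (-0.28) and when all its probe sets were averaged (-0.27). Adss did not pass at -0.12 (limma adjusted p = 0.211), though it did after median centring (-0.24) and with 32 added in linear units. Impdh1, one form of IMP dehydrogenase, was the purine member with the opposite sign. It read 6.05, 6.11 and 6.14 in control and 6.33, 6.18 and 6.53 in GFP positive samples. Its change of 0.25 did not pass (limma adjusted p = 0.0815), and did without GFP positive 2 (0.33). Impdh2 had no level here.

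De novo pyrimidine synthesis showed the largest falls among the members. The 3 genes of the route to UMP (Cad, Dhodh and Umps) and Ctps fell, and Ctps2 rose, with a median of -0.71 over the 5. Among all genes tested, 17.5% were lower and 24.6% higher. Cad encodes the trifunctional enzyme that starts the pathway. Its samples read 7.67, 7.83 and 7.94 in control and 6.87, 7.09 and 7.01 in GFP positive cells. The groups were separated by more than the spread of either, with a change of -0.82 ± 0.10 (SE), or 1.77-fold (limma adjusted p = 4.9e-04), and -0.64 on a second probe set.

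Dhodh, the mitochondrial dehydrogenase gene of the fourth step, had the largest fall of all members as deposited. It read 5.65, 5.96 and 5.90 against 4.86, 4.92 and 4.80. The fall from 5.84 ± 0.16 to 4.86 ± 0.06 (SD, n = 3) was 1.97-fold (change -0.98 ± 0.10 SE; limma adjusted p = 2.5e-04). Its signal is modest, and with 32 added in linear units the change was -0.549. That was less than those of Cad (-0.69), Ampd2 (-0.61), Ctps (-0.59), Umps (-0.56) and, narrowly, Gart (-0.550). A second Dhodh probe set changed by -0.88. Umps encodes the bifunctional enzyme that makes UMP. It read 7.65, 7.65 and 7.62 in GFP negative samples, a very narrow range, and 6.94, 7.06 and 6.89 in GFP positive ones. The groups lay well apart at -0.67 ± 0.08 (SE), or 1.595-fold (limma adjusted p = 4.3e-04), and its other probe sets past the filter changed by -0.43 and -0.24.

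CTP synthase, which aminates UTP, has 2 genes, and these moved in opposite directions. Ctps read 7.68, 7.62 and 7.66 in control and 6.87, 7.07 and 6.90 in GFP positive samples. Ctps fell by 0.71 ± 0.08 (SE), or 1.63-fold (limma adjusted p = 4.5e-04). Ctps2 read 6.31, 6.68 and 6.47 against 6.99, 6.96 and 6.91, with every GFP positive sample above the controls. Ctps2 rose by 0.47 ± 0.11 (SE), or 1.38-fold (limma adjusted p = 0.0090), but a dim second probe set went from 1.47 to 1.12. The mean of these probe sets, those past the filter, changed by 0.06 and did not pass. Another Ctps2 probe set, under the filter, changed by -0.14. The log2 difference between the Ctps and Ctps2 probe sets went from 1.17 ± 0.22 to -0.01 ± 0.12 (SD, n = 3), a change of -1.17. An exact two-sided permutation test over the 20 assignments of samples gave p = 0.1, the smallest it can give, and 0.4 after adjustment over the 4 pairs of enzyme forms compared.

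**Figure D2:**
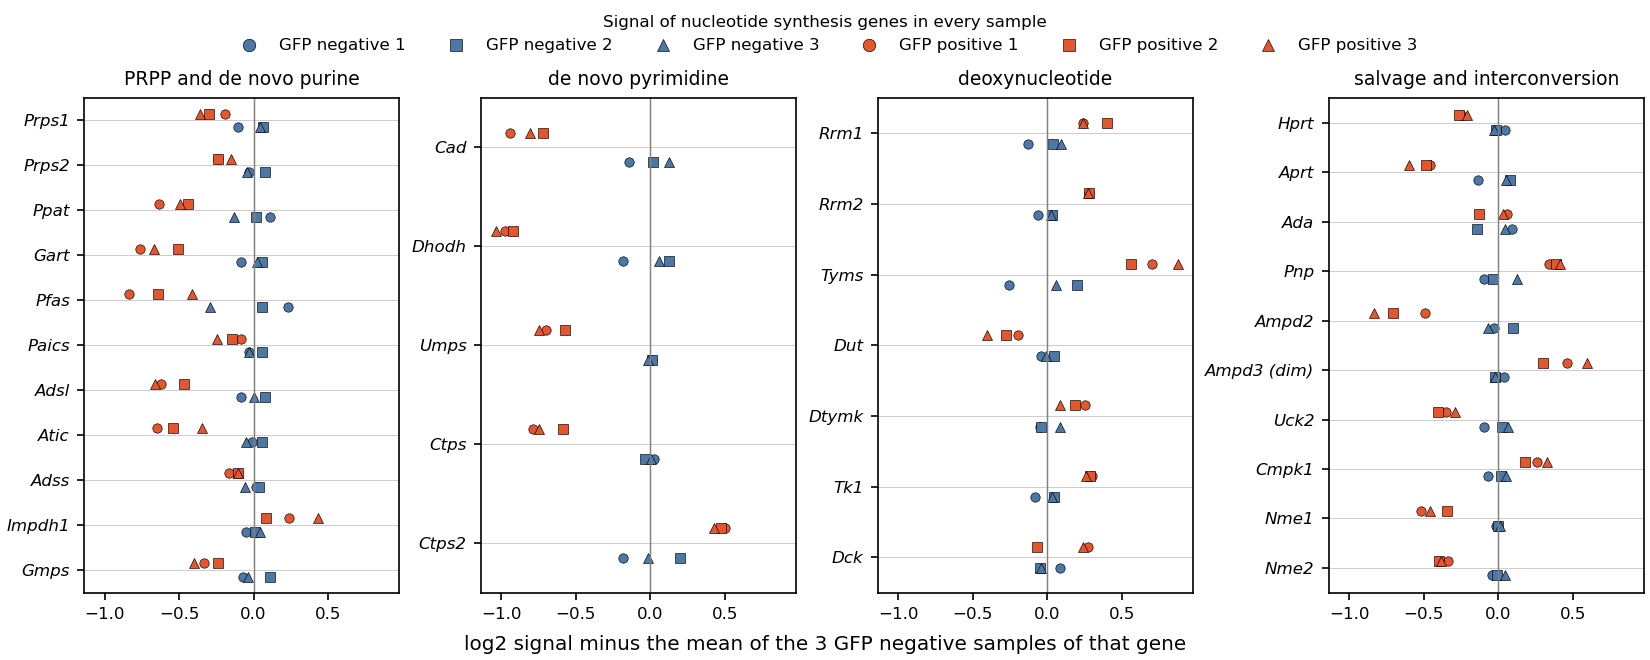
Log2 signal of each member in the 6 samples minus that gene's mean over the 3 GFP negative samples (x axis), with members by role on the y axis, blue for GFP negative and red for GFP positive samples, and the marker shape giving the replicate number. Positions compare samples within a gene, not levels of different genes. Gart, Cad, Dhodh, Umps and Ctps show 3 GFP positive points below 3 GFP negative ones, and Ctps2 and Tk1 the reverse.

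Deoxynucleotide genes moved the other way as deposited: 4 of 7 rose, 1 fell and 2 did not pass, with a median of 0.28. The shares over all genes tested, as deposited, were 24.6% higher and 17.5% lower. Median centring lowered the higher share of all called genes from 58.4% to 39.6%. Only Tyms kept its rise after median centring, without GFP negative 1, or without both GFP negative 1 and GFP positive 3, when 1 of 7 was higher. Rrm1 and Rrm2 encode the large and the small subunit of ribonucleotide reductase, the small one limiting in S phase. Rrm1 read 9.35, 9.53 and 9.58 in control and 9.73, 9.89 and 9.72 in GFP positive samples. It rose by 0.29 (limma adjusted p = 0.0354), a call that ended after median centring (0.18) and without GFP negative 1 (0.23), GFP negative 2 (0.31), GFP positive 2 (0.24) or GFP positive 3 (0.32). Rrm2 read 10.72, 10.82 and 10.81 against 11.06, 11.06 and 11.06. Its GFP positive values were nearly identical, and the rise of 0.28 (limma adjusted p = 0.0182) did not pass after median centring (0.16) or without GFP negative 1 (0.25). The Rrm2 probe set is of the kind whose probes can match other sequences, and its other probe sets changed by 0.22 and 0.22.

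Tyms encodes thymidylate synthase, which makes dTMP. Its brightest probe set was dim, at 1.69, 2.15 and 2.00 in control and 2.65, 2.51 and 2.83 in GFP positive samples. Control probe sets that match no mouse transcript (TrpnX) averaged 0.60 to 0.72, so Tyms was read close to background. It rose by 0.72 ± 0.14 (SE; limma adjusted p = 0.0039), and by 0.10 with 32 added in linear units. Another Tyms probe set past the filter changed by 1.13, and those under the filter by -0.02 and -0.10. Tk1, the thymidine kinase gene of cycling cells, read 7.92, 8.04 and 8.02 against 8.29, 8.28 and 8.26. Its rise of 0.28 (limma adjusted p = 0.0192) ended after median centring (0.17) and without GFP negative 1 (0.24).

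Dut encodes dUTPase, which keeps uracil out of DNA, and was the deoxynucleotide member that fell. It read 10.16, 10.25 and 10.19 against 10.0002, 9.92 and 9.80. The change of -0.29 (limma adjusted p = 0.0251) did not pass when GFP negative 1 (-0.31), GFP negative 2 (-0.27), GFP negative 3 (-0.30), GFP positive 2 (-0.30) or GFP positive 3 (-0.24) was left out, or as the mean of its probe sets (-0.17). Dtymk, the kinase gene for dTMP, and Dck, that for deoxycytidine, did not pass, with changes of 0.18 and 0.15 (limma adjusted p = 0.128 and 0.308).

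Some deoxynucleotide genes cycle with S phase, so 15 genes of DNA replication were set beside the deoxynucleotide members. Of these 1 rose (Prim1, a primase subunit, by 0.23, limma adjusted p = 0.0423), 0 fell and 14 did not pass, with a median of 0.06 and a range from -0.25 to 0.23. As deposited, all genes tested gave 24.6% higher and 17.5% lower. The count depended on the setting, with 4 higher and 2 lower when 32 was added in linear units, 0 higher and 2 lower after median centring, and 0 higher in each fit that left out 1 sample. With the replicate number as a block 0 rose, Prim1 having an adjusted p of 0.0566 by limma. Whether the deoxynucleotide genes differ from the S phase genes was not tested.

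In salvage and interconversion, 6 of 9 tested members fell, 2 rose and 1 did not pass, with a median of -0.35. Beside these counts stand 17.5% lower and 24.6% higher over all genes tested. Aprt and Hprt encode the enzymes that return free purine bases to nucleotides with PRPP. Aprt read 9.24, 9.45 and 9.42 in control and 8.91, 8.88 and 8.77 in GFP positive samples. It fell by 0.52 ± 0.09 (SE), or 1.43-fold, with no overlap (limma adjusted p = 0.0027), and its second probe set changed by -0.59. Hprt fell by 0.24 (limma adjusted p = 0.0307), a call lost when any sample other than GFP positive 3 was left out (changes of -0.25 to -0.22).

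Pnp, Ada and the AMP deaminase genes encode enzymes that act on purine nucleosides and AMP. Pnp (purine nucleoside phosphorylase) read 8.46, 8.52 and 8.68 against 8.89, 8.94 and 8.96. It rose by 0.38 ± 0.09 (SE), or 1.302-fold (limma adjusted p = 0.0087), and the near-identical copy Pnp2 may share its probes. The call ended without both GFP negative 1 and GFP positive 3 (0.32). Ada, the adenosine deaminase gene whose loss blocks lymphocyte development, stood at -0.01 with overlapping groups (limma adjusted p = 0.937).

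Ampd2 read 8.46, 8.58 and 8.42 in control and 7.99, 7.78 and 7.65 in GFP positive samples. It fell by 0.68 ± 0.11 (SE), or 1.599-fold (limma adjusted p = 0.0016), on a probe set whose probes can match other sequences, while its second probe set changed by -0.24. Ampd3, the other form, read 0.92, 0.85 and 0.86 against 1.34, 1.18 and 1.47. These values lie near background and Ampd3 was under the dim filter, so it was not tested.

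Kinase genes of the salvage group moved in both directions, with Nme1, Nme2 and Uck2 lower and Cmpk1 higher. Nme1 read 10.39, 10.41 and 10.42 against 9.89, 10.06 and 9.95, and Nme2 read 11.78, 11.82 and 11.87 against 11.49, 11.43 and 11.44. Both encode nucleoside diphosphate kinases and are adjacent on chromosome 11, with 2668 bases between them. Nme1 fell by 0.44 ± 0.08 (SE), or 1.36-fold (limma adjusted p = 0.0032), and Nme2 by 0.37 ± 0.07 (SE), or 1.29-fold (limma adjusted p = 0.0050), with no overlap in either. As these sequences are much alike, probes may not separate them fully. Uck2, which phosphorylates uridine and cytidine, fell by 0.35 (limma adjusted p = 0.0104), and its other probe sets past the filter changed by -0.60 to -0.31. Cmpk1, the UMP-CMP kinase gene, rose by 0.26 (limma adjusted p = 0.0347). That call ended after median centring (0.14) and when any sample other than GFP positive 2 was left out (changes of 0.22 to 0.28).

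Pairs of enzyme forms were compared by the change in their log2 difference, by the same exact permutation test, which cannot give a p under 0.1. Besides Ctps and Ctps2, Prps1 against Prps2 changed by -0.07 (exact p = 0.5, adjusted 0.667), Nme1 against Nme2 by -0.07 (exact p = 0.5, adjusted 0.667) and Rrm1 against Rrm2 by 0.02 (exact p = 0.8, adjusted 0.8). Pairs with Impdh2, which had no level, and Ampd3, which was under the dim filter, were not compared.

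Members with several probe sets gave a check within each array. Of 32 further member probe sets past the filter, 29 changed with the sign of the brightest one, as did 23 of 24 for members that passed the threshold. The exception among the latter was Ctps2. Probe sets of 1 gene share the RNA and the array, so this count describes the probe sets and is not replication.

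**Figure D3:**
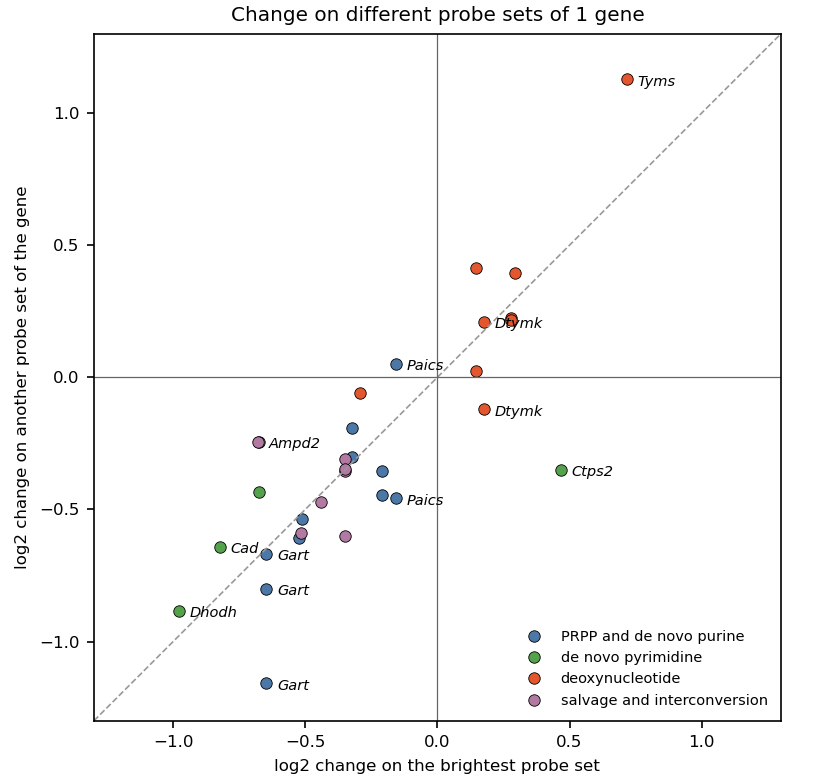
Log2 change on other probe sets of a member (y axis) against that on its brightest probe set (x axis), each point being 1 further probe set past the filter, the colours giving the role and the dashed line marking equal changes. Points below 0 on both axes are in the majority, with Gart, Cad and Dhodh low on both, Tyms high on both, and Ctps2 and 1 probe set each of Paics and Dtymk off that pattern.

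Other genes of nucleotide metabolism were read from lists by role. Each list's counts stand beside 24.6% higher and 17.5% lower over all genes tested. Folate one-carbon genes, which supply formyl groups for purines and the methyl group of dTMP, gave 3 falls, 0 rises and 5 that did not pass of 8 tested. The serine hydroxymethyltransferase genes Shmt2 and Shmt1 and the folate enzyme gene Mthfd1 fell by 1.09, 0.93 and 0.75 (limma adjusted p = 1.2e-04, 0.0012 and 6.5e-04). Of 8 genes that regulate PRPP or feed the pentose phosphate pathway, 3 fell, 1 rose and 4 did not pass: Pgd and Pgls, of the oxidative branch, fell by 0.53 and 0.50 (limma adjusted p = 0.0048 and 0.0020), and Prpsap1, a synthetase-associated protein gene, by 0.36 (limma adjusted p = 0.0362). The call of Prpsap1 ended in each fit without 1 sample other than GFP negative 1, and that of Rpia (0.23), the gene called higher, in each fit without 1 sample, with the replicate number as a block (limma adjusted p = 0.0634), after median centring (0.12) and with quantile normalization (0.197).

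Other nucleotide kinase genes split evenly, with 5 higher, 5 lower and 3 that did not pass of 13. Cmpk2 and Tk2, mitochondrial kinases for CMP and thymidine, rose by 1.04 and 0.92 (limma adjusted p = 1.2e-04 and 1.6e-04), and by 0.44 and 0.36 with 32 added in linear units. The mean of the Cmpk2 probe sets rose less, by 0.52, and still passed (limma adjusted p = 0.0015), so the size of its rise depends on the probe set. Adk, the adenosine kinase gene, fell by 1.10 (limma adjusted p = 2.8e-04). Leaving out GFP negative 2 brought the lower count of this list to 3, and quantile normalization the higher count to 3. Of 7 genes that control deoxynucleotide pools, 3 fell, 0 rose and 4 did not pass: Dctd, the dCMP deaminase gene, fell from 4.402 to 2.47, by 1.93 (0.50 with 32 added in linear units), Dctpp1, a dCTP pyrophosphatase gene, by 0.77 and Dnph1, a nucleotide hydrolase gene, by 0.68 (0.35 with 32 added; limma adjusted p = 3.3e-04, 2.4e-04 and 0.0016). Dut and these genes thus fell beside Rrm1, Rrm2 and Tk1, which rose as deposited.

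Of 7 regulators of these pathways, E2f2 rose, Myc and Atf4 fell, 3 did not pass and Mycn has no direction here, since its brightest probe set passed as higher but its probe sets disagreed, at 6.15, -2.47 and -0.11. Myc went from 8.62 ± 0.09 to 7.50 ± 0.28 (SD, n = 3), a fall of 1.12 (limma adjusted p = 5.3e-04), with samples at 8.52, 8.70 and 8.65 against 7.27, 7.81 and 7.43. Atf4, a stress-response factor gene, fell by 0.53 (limma adjusted p = 0.0113), a call lost without both GFP negative 1 and GFP positive 3 (-0.43). E2f2, an E2F gene, rose by 0.68 (limma adjusted p = 8.3e-04), with 0.55 on a second probe set. The part of these regulators in the members' changes was not tested.

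**Figure D4:**
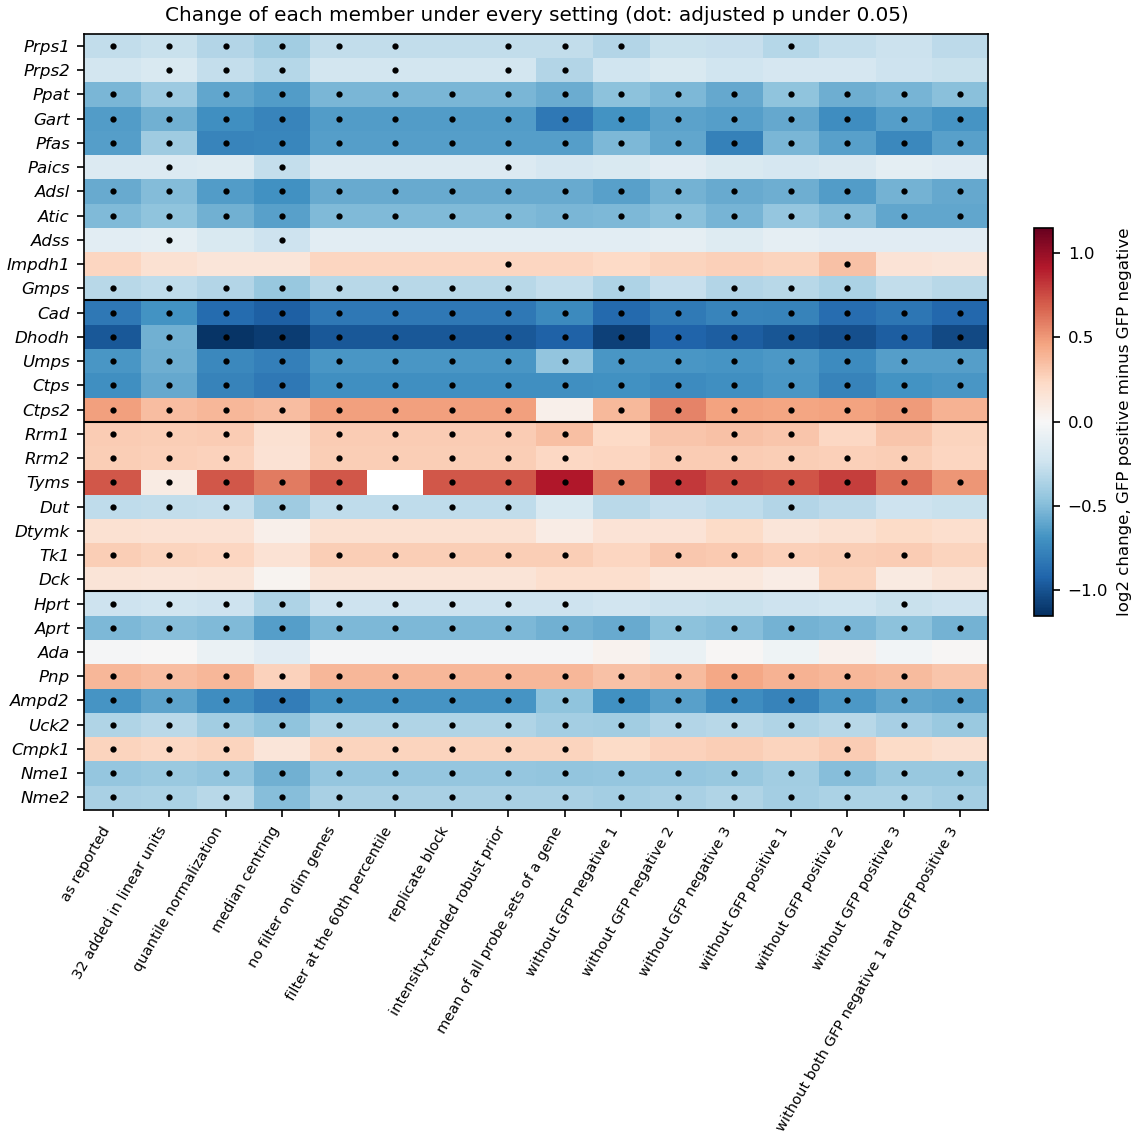
Log2 change of each tested member (rows, grouped by role) as reported and under every alternative setting (columns), with colour from blue for lower to red for higher in GFP positive cells and a dot where the limma adjusted p is under 0.05. The blank cell is Tyms, which the filter at the 60th percentile leaves out. Rows such as Gart, Cad, Dhodh, Umps and Ctps are blue with a dot in every column, while the dots of Rrm1, Dut, Hprt and Cmpk1 come and go.

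Of the 18 members that fell, 14 kept their call under all settings tried. Of the 7 that rose, only Tyms did wherever it was tested, and it was read close to background. Hdac7, the gene carried by the virus, read 4.83 ± 0.03 in control and 8.15 ± 0.05 in GFP positive samples (SD, n = 3), higher in the samples labelled as carrying the mutant. T cell markers were present, with 7 of 8 measured and all 7 past the filter, and 4 higher and 1 lower in GFP positive cells. Their summed linear signal was 5993 to 7227 in control and 7992 to 9012 in GFP positive samples. The sums of the markers of other cell types were small: 28.1 to 34.3 against 26.1 to 32.05 for 4 B cell genes, 22.2 to 25.3 against 24.9 to 26.3 for 7 myeloid genes, 16.9 to 17.4 against 11.9 to 14.6 for 4 dendritic genes and 9.07 to 9.97 against 8.69 to 8.79 for 2 CD4 T cell genes. Of these markers Cd68 (myeloid) was higher, at 1.76 against 2.86 (change 1.11; limma adjusted p = 4.3e-04), and all 3 dendritic genes past the filter were lower, with changes of -0.47 for Flt3, -0.47 for Zbtb46 and -0.22 for Siglech (limma adjusted p = 0.0096, 0.0203 and 0.0477). The erythroid and NK genes measured were all under the filter. The 3' minus 5' log2 difference of Gapdh, a measure of RNA integrity, was -0.02 to 0.08 in control and 0.02 to 0.12 in GFP positive samples. That of Actb was larger, at 0.43 to 0.51 and 0.48 to 0.53. Hybridisation controls read 7.74 to 7.84 and 7.87 to 8.19, with GFP positive 3 highest, and 18S controls 8.87 to 9.98 and 8.74 to 9.25, with GFP negative 1 highest. The array median was 1.69 to 1.72 and 1.63 to 1.67. The part of these measures in the members' changes was not tested. Without both of those samples, 10 of the 25 calls were lost (Prps1, Gmps, Ctps2, Rrm1, Rrm2, Dut, Tk1, Hprt, Pnp and Cmpk1), at changes from -0.32 to 0.40. Among all genes tested, that fit called 3325, against 5557 with all samples.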

How the data were processed

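Total RNA (Qiagen RNeasy kit) was labelled with biotin and hybridised, per the labels' protocols, to 1 Affymetrix whole-genome mouse array per sample. The table deposited by the authors holds log2 signals, a scale read from the range of values (-0.10 to 13.29). Affymetrix Expression Console is named in the submitters' processing notes. How it summarised probes, treated background and normalized arrays was not given in the sources used here. These steps set the size of changes at low signal.

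The deposited log2 values were used as they are. Of 45101 probe sets, 34945 carry 1 gene symbol. Each of 18193 genes was represented by its probe set of highest mean, and genes under the 40th percentile of mean signal (1.27) were left out, which leaves 13194. Groups were compared with limma 3.58.1 in R 4.3.3 by a two-sided moderated test with no term other than group, and p-values were adjusted over all genes tested by Benjamini and Hochberg's method. Arrays give no read depth, so precision is limited by 3 arrays per group. The procedure was also run on simulated data with far fewer changed genes than were called here and no replicate pairing. That run therefore does not show how the test behaves on these arrays.

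The members and gene lists were chosen with earlier results of these data known. Values per sample are given for the pairs of enzyme forms and, per role, for up to 5 called members of largest change whose groups do not overlap. Those of Myc are also given, outside this rule. The values per sample of Paics and Impdh1, and the genes Rpia, Atf4 and Nt5e, were added after their values were seen. Of each other list, up to 3 called genes of smallest p are named. Samples with the same replicate number deviated together across genes, with correlations of 0.47, 0.35 and 0.25, so the numbers were treated as pairs in an alternative fit. Alternatives were 32 added in linear units, quantile normalization, median centring, no dim filter or one at the 60th percentile, the replicate block, a robust intensity-trended prior, the mean of all probe sets, and leaving out each sample or both GFP negative 1 and GFP positive 3. The mean of all probe sets of a gene takes in only those past the 40th percentile filter. Of 6 planned pairs of enzyme forms, 4 were compared, as Impdh2 had no level and Ampd3 was dim. The planned comparison of protein sequences between enzyme forms was not run.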

Additional observations from a re-analysis of the deposited data

How the results depend on the processing

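No member that passed the threshold changed direction under any of the 15 alternatives. The members lower stayed within 1.5 times of 18 in all of them, and so did the counts lower of the purine, pyrimidine and salvage members. With the replicate number as a block, the members' counts were 17 lower and 7 higher, and Prps1 was the 1 call lost (limma adjusted p = 0.0503), so the pairing changed no other member's call. Among other genes named, the block ended the calls of Prim1 and Rpia. The change of Nt5e reversed to -0.061 with the mean of all probe sets. The counts higher were less stable. Median centring brought the members higher from 7 to 3, the deoxynucleotide members higher from 4 to 1 and the salvage members higher from 2 to 1. Leaving out 1 sample at a time gave 3 to 7 members higher, 1 to 4 deoxynucleotide members higher and 0 to 1 lower, 1 to 2 salvage members higher and 0 to 1 purine members higher. Without both GFP negative 1 and GFP positive 3 there were 1 member higher, 0 pyrimidine, 1 deoxynucleotide and 0 salvage members higher, and 0 deoxynucleotide members lower. The robust prior gave 1 purine member higher. The mean of all probe sets gave 0 pyrimidine members higher and 0 deoxynucleotide members lower. The share of all called genes that were higher was 58.4% in the deposited values, 49.0% with quantile normalization and 39.6% with median centring. Leaving out a sample also leaves fewer samples to test with, and the cause of the other changes was not tested. Among all genes tested, 4315 to 5604 were called without 1 sample and 3325 without both, against 5557 with all samples. Signals near background, as for Tyms and Ampd3, limit the size of a change.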

Other observations

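Genes of nucleotide breakdown and of nucleoside transport were also read, as values with no comparison to the members. Of 12 breakdown and nucleotidase genes tested, 3 rose on their brightest probe sets, 1 fell and 8 did not pass. The share higher, 25%, was near the 24.6% of all genes tested, and the share lower was 8.33% against 17.5%. Entpd1, which encodes the ectoenzyme CD39 that degrades extracellular ATP, rose from 3.22 ± 0.24 to 4.44 ± 0.29 (SD, n = 3), by 1.22 (limma adjusted p = 9.1e-04) and by 0.38 with 32 added in linear units. Nt5e encodes CD73, the next ectoenzyme, which makes adenosine. Its brightest probe set rose by 0.57 (limma adjusted p = 0.0063). The mean of its probe sets past the filter changed by -0.06 and did not pass, so its direction depends on the probe set. Nt5e was named after its value was seen. Nt5c2, a cytosolic nucleotidase gene that acts on IMP and GMP, rose by 0.88 (limma adjusted p = 2.0e-04) and by 0.52 with 32 added. Nt5c, a nucleotidase gene for deoxynucleotides, fell by 0.46 (limma adjusted p = 0.0023). Of 3 transporter genes tested, Slc29a3, an intracellular nucleoside transporter gene, rose by 0.43 (limma adjusted p = 0.0184), a call lost without GFP negative 1 (0.36), without both GFP negative 1 and GFP positive 3 (0.26), and with quantile normalization (0.26) or the mean of its probe sets (0.08).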
